A study of Mus musculus with 9 samples.

Results

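Foxj1 and the genes of the motile cilium were examined in the cortex of newborn mice with raised Sonic hedgehog (SHH) signalling. The genes were chosen by name from the deposited tables: the regulators Foxj1, Mcidas, Gmnc, Rfx2 and Rfx3, every numbered Dnah, Dnaaf, Rsph and Cfap gene, Dnaic1, Dnaic2, Dynlrb2, the tektins, Spag6, Spag6l, Spag16, Spag17, Hydin, Crocc, Crocc2, Enkur, Ccdc153 and Tmem212. This gave 64 genes, of 22496 in the table with ShhN IUE and of 23624 in the table with SmoM2. Bulk RNA of dissected cortex was sequenced in 9 libraries, 3 per group, all from postnatal day 0 and from mice of mixed C57BL/6J, 129S6 and CD1 background. ShhN IUE mice had received ShhN, the signalling fragment of Sonic hedgehog, by in utero electroporation, which reaches a patch of the ventricular wall. SmoM2 mice carried hGFAP-Cre and SmoM2f/+, an activated form of Smoothened switched on by Cre under the human GFAP promoter, which is active in radial glia. The controls were wild-type littermates. No group was labelled as electroporated without ShhN, so ShhN and the electroporation cannot be told apart. The labels do not say whether replicates came from separate animals, and p-values here rest on the spread among these samples, which may be technical.

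Motile cilia carry an axoneme of microtubule doublets with outer and inner dynein arms, radial spokes and, in most cases, a central pair of microtubules. In the brain they are borne mainly by ependymal cells, which radial glia give rise to and which line the ventricles, and by choroid plexus epithelium. Gmnc and Mcidas start the multiciliated programme together with E2f4 and E2f5, and centrioles are then amplified. Foxj1, a forkhead transcription factor, and the RFX factors switch on the genes of the axoneme.

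The libraries held 15376071 to 19604672 counts in ShhN IUE, 23625702 to 26923127 in SmoM2 and 18610507 to 21694348 in wild type. The same 3 wild-type libraries stood in both deposited tables but were counted differently for many genes, so each group was tested against the wild type of its own table. Of the 64 genes, 45 had wild-type counts that agreed between tables. Pyramidal neuron genes summed to 1441 to 2059 library-scaled counts (CPM) in ShhN IUE, against 1797 to 2330 in wild type of that table. In SmoM2 they summed to 1881 to 1954, against 2096 to 2477 in wild type of its table. Of these genes 2 of 6 fell in ShhN IUE and 4 of 6 in SmoM2. Over all genes tested, 17.2% fell in ShhN IUE and 9.29% in SmoM2. Striatal projection neuron genes summed to 38.9 to 49.4 CPM in ShhN IUE and 29.6 to 36.3 in SmoM2, against 165 to 215 in wild type of the ShhN IUE table and 156 to 216 in that of the SmoM2 table, and 8 of 8 fell in each comparison. The part of this difference in the results below was not tested.

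Per length, most of these genes were low in every group. Mean FPKM, the fragments scaled by gene length and library size, of the 64 genes had a median of 0.616 in ShhN IUE, against 0.270 in wild type, and of 0.357 in SmoM2, against 0.274 in wild type. Below 1 FPKM were 41 of 64 genes in ShhN IUE and 48 in wild type of the same table, and 42 in SmoM2 and 48 in wild type of its table. The highest in wild type was Cfap20, a protein of the doublet's inner wall, with 32.5 ± 1.40 FPKM in SmoM2, against 32.2 ± 2.94 in wild type (SD, n = 3 each). At the low end, Ccdc153 and Tmem212, genes often used to mark mature ependymal cells, had at most 3 counts in any library of any group and were too low to test.

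Foxj1 was higher in both groups. ShhN IUE libraries 1, 2 and 3 held 598, 698 and 236 counts of it, against 76, 139 and 74 in wild type. In the other table it had 388, 304 and 285 counts in SmoM2 libraries, against 76, 138 and 74 in wild type. All 6 libraries with raised SHH signalling lay above all wild-type libraries, and ShhN IUE library 3 lay well below the other two of its group. The log2 fold change was 2.59 ± 0.38 in ShhN IUE (SE, n = 3 per group, adjusted p = 0.0024 by edgeR's quasi-likelihood test) and 1.41 ± 0.22 in SmoM2 (adjusted p = 0.0046). Leaving out any 1 library kept both calls, with log2 fold changes of 2.25 to 2.91 in ShhN IUE and 1.29 to 1.66 in SmoM2. Foxj1 (ENSMUSG00000034227) lies at chr11:116330704-116335399 (GRCm38, minus strand), and in FPKM averaged 11.1 ± 5.0 in ShhN IUE and 1.80 ± 0.557 in wild type, and 4.87 ± 0.640 in SmoM2 and 1.80 ± 0.550 in wild type. Fewer or more ciliating cells and less or more RNA per cell cannot be told apart in bulk tissue.

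Among the other regulators, Rfx2 rose in both groups. Rfx2 had 109, 112 and 103 counts in ShhN IUE, against 36, 52 and 25 in wild type, a log2 fold change of 1.72 ± 0.27 (adjusted p = 0.0032). In SmoM2 it had 185, 136 and 138 counts, against 36, 52 and 25, a log2 fold change of 1.66 ± 0.25 (adjusted p = 0.0036). Neither group overlapped with wild type. Rfx3, a related factor, had 2447, 1918 and 2175 counts in ShhN IUE, against 2051, 2713 and 1454 in wild type, and did not pass (log2 fold change 0.27 ± 0.16, adjusted p = 0.22). In SmoM2 it had 1460, 815 and 1146 counts, against 625, 688 and 380, also short of the threshold (0.65 ± 0.20, adjusted p = 0.061). The same wild-type libraries summed to 6218 counts of Rfx3 in the ShhN IUE table and 1693 in the SmoM2 table, so its levels cannot be set side by side.

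The initiators Gmnc and Mcidas were near the limit of detection. Gmnc had 26, 35 and 31 counts in SmoM2, against 8, 11 and 2 in wild type, with no overlap (log2 fold change 1.78 ± 0.45, adjusted p = 0.029). That call was lost without any single SmoM2 library (adjusted p up to 0.0962 over all alternatives). In ShhN IUE Gmnc had 21, 12 and 8 counts, against 8, 11 and 1, and was too low to test. Mcidas had 60, 54 and 8 counts in ShhN IUE, against 11, 19 and 11 in wild type: libraries 1 and 2 were above wild type and library 3 was below it. Its log2 fold change of 1.72 ± 0.62 did not pass (adjusted p = 0.065), though it did without ShhN IUE library 3 (log2 fold change 2.19) and with DESeq2. In SmoM2 it had 6, 12 and 9 counts, against 11, 20 and 11 (log2 fold change -0.97 ± 0.41, adjusted p = 0.14).

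**Figure D1:**
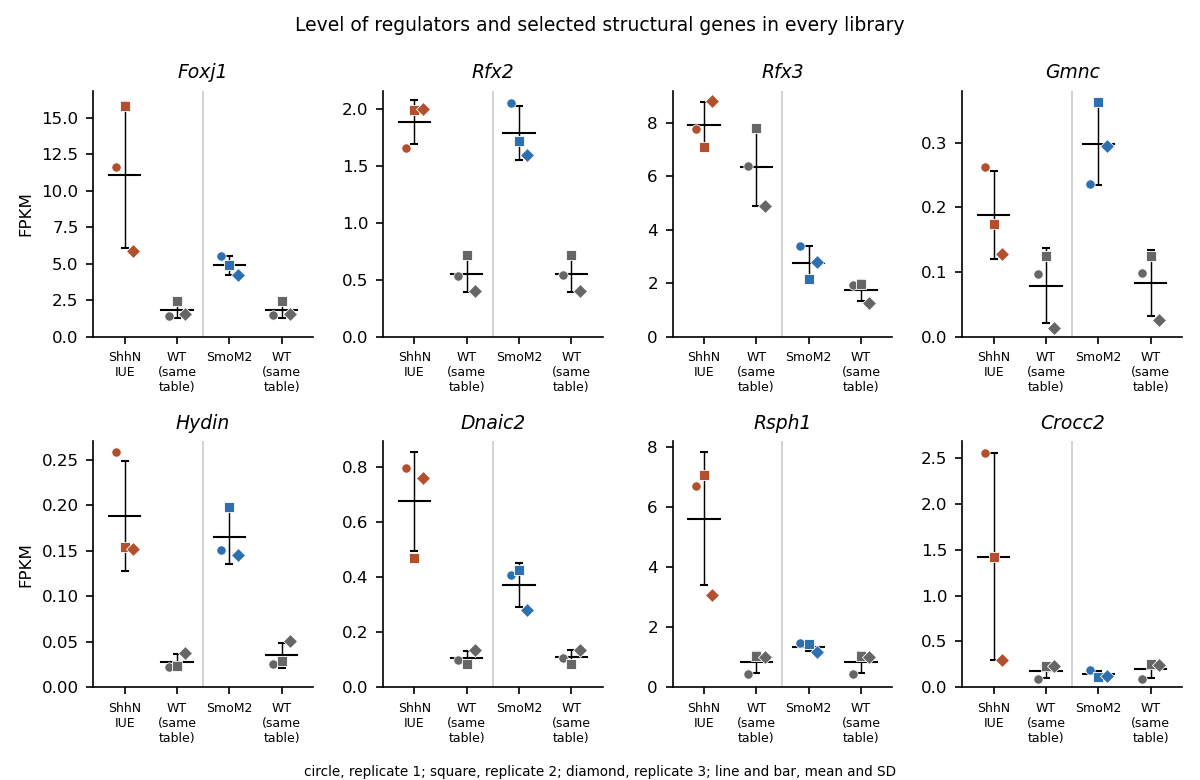
FPKM of 4 regulators and 4 structural genes in every library (vertical axes, a scale of its own in each panel), for ShhN IUE and SmoM2, each beside the wild type of its own table. Markers are single libraries, lines and bars the mean and SD of 3. Foxj1 averaged 11.1 FPKM in ShhN IUE and 4.87 in SmoM2, against 1.80 in wild type of each table, and Rfx3 differed between the 2 counts of the wild-type libraries.

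Over the 64 genes, ShhN IUE against wild type gave 26 that rose, 3 that fell, 22 that did not pass and 13 too low to test. Among all 16180 genes tested, 16.1% rose and 17.2% fell. Of the 51 tested motile cilium genes 51.0% rose and 5.88% fell, and their median log2 fold change was 0.85, against -0.0038 over all genes tested. Genes reached the test partly through the group in which they were high, so these shares describe the genes tested, not all 64. In 29 of the 51 the 3 ShhN IUE libraries lay above all wild-type libraries (24.5% of all genes tested did so) and in 4 below (24.9%). Over the 26 genes that rose, CPM summed to 319, 286 and 275 in ShhN IUE libraries 1, 2 and 3, against 131, 129 and 122 in wild type. The 26 were picked by their rise in these libraries, so the gap to wild type follows from that choice. The sums serve only to compare libraries within a group. ShhN IUE library 3 was the lowest of its group for 13 of the 26 genes and library 1 the highest for 11. Without library 1, 15 of the 64 rose.

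The dynein chains, the motor subunits of the axonemal arms, held 7 risers among 13 tested of 15 in ShhN IUE, and 0 fell. Dnaic2, an intermediate chain of the outer arm, had 87, 44 and 65 counts in ShhN IUE, against 11, 10 and 14 in wild type, with no overlap (log2 fold change 2.63 ± 0.35, adjusted p = 0.0018). Its partner Dnaic1 had 66, 37 and 54 counts, against 14, 14 and 8 (2.29 ± 0.34, adjusted p = 0.0026). Among the heavy chains, Dnah11 rose (log2 fold change 2.41 ± 0.51), while Dnah5 and Dnah9 had 0.43 ± 0.24 and 0.51 ± 0.32 and did not pass (adjusted p = 0.20 and 0.25). Dnah10, an inner-arm heavy chain, had 191, 102 and 57 counts in ShhN IUE, against 56, 63 and 57 in wild type: library 3 was at the wild-type count, though above it in CPM, and without library 1 the log2 fold change dropped to 0.70, against 1.12 with all, and the call was lost. Dnah8, Dnah17 and Dnah2 rose by 1.44, 0.63 and 0.49 on the log2 scale, each losing its call without 1 or more single libraries. Of the cytoplasmic factors that assemble dynein arms, Dnaaf3 rose, with 81, 68 and 36 counts in ShhN IUE against 11, 12 and 10 in wild type (2.63 ± 0.35, adjusted p = 0.0017). Dnaaf2 and Dnaaf5 had log2 fold changes of -0.10 and -0.06 and did not pass.

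Radial spokes, the stalks that pass signals from the central pair to the dyneins, gave 4 risers among 6 tested of 8 genes. Rsph1, a protein of the spoke head, had 153, 138 and 55 counts in ShhN IUE, against 10, 26 and 22 in wild type, with no overlap (log2 fold change 2.73 ± 0.45, adjusted p = 0.0038). Rsph3b, Rsph4a and Rsph9 rose by less, 0.80, 0.91 and 0.66. Without ShhN IUE library 1 only Rsph1 among them passed. Hydin, a giant protein of the central pair, had 80, 41 and 37 counts in ShhN IUE, against 7, 8 and 11 in wild type (2.72 ± 0.39, adjusted p = 0.0022). Of the 3 genes tested among Hydin and the Spag genes, it alone passed: Spag17 and Spag6 had log2 fold changes of -0.10 and -0.55 (adjusted p = 0.89 and 0.061). Cfap genes with a part in the central pair are given with the other Cfap genes below.

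Of 18 cilia and flagella associated proteins (Cfap), 16 were tested, 8 rose and 1 fell. Cfap43 and Cfap44, which tether an inner dynein arm in Chlamydomonas and Tetrahymena, rose by 1.82 ± 0.26 and 1.52 ± 0.21 on the log2 scale. Cfap43 had 329, 237 and 304 counts in ShhN IUE, against 59, 120 and 102 in wild type, and Cfap44 had 229, 179 and 207, against 67, 83 and 91. In both, every ShhN IUE library was above every wild-type library. Cfap52 and Cfap45, proteins inside the doublet wall, rose by 1.92 and 1.82, Cfap46, Cfap54 and Cfap74, of the central pair in Chlamydomonas, by 1.35, 1.09 and 0.61, and Cfap57 by 1.51. Cfap74 lost its call without any single library, Cfap45 without any but ShhN IUE library 3, and Cfap57 without any but ShhN IUE library 3 and wild-type library 2. Cfap36 went the other way, with 558, 555 and 517 counts in ShhN IUE, against 947, 1054 and 995 in wild type (-0.70 ± 0.12, adjusted p = 0.0041).

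Of the 4 tektins, filament proteins of the doublet, 3 were tested in ShhN IUE, of which 0 rose and 2 fell. Tekt2 had 91, 106 and 76 counts in ShhN IUE, against 252, 227 and 278 in wild type, with no overlap, and fell by 1.30 (SE 0.22, adjusted p = 0.0046). Tekt5 had 14, 4 and 2 counts, against 47, 60 and 21, and fell by 2.49 (SE 0.60, adjusted p = 0.016), a call that needed library 2 of both ShhN IUE and wild type. Tekt1 had 112, 97 and 56 counts, against 59, 78 and 52 (0.66 ± 0.27, adjusted p = 0.094). Tekt4, with 33, 20 and 0 counts in ShhN IUE, against 6, 6 and 5 in wild type, was left out by the filter on low counts. Rootlet genes rose: Crocc, which encodes rootletin and is also used by primary cilia and centrosomes, had 1343, 950 and 1203 counts in ShhN IUE, against 791, 669 and 554 (0.97 ± 0.17, adjusted p = 0.0044). Crocc2, a rootletin relative, had 358, 170 and 33 counts, against 12, 36 and 30 in wild type. Library 3 was within the wild-type counts and only in CPM above them, and the log2 fold change of 2.95 ± 0.73 (adjusted p = 0.017) was 2.22 without ShhN IUE library 1, where the call was lost. Enkur, a protein of the doublet wall, had 86, 48 and 54 counts, against 25, 28 and 25 (1.43 ± 0.28, adjusted p = 0.0073).

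In SmoM2 against wild type, 17 of the 64 genes rose, 1 fell, 37 did not pass and 9 were too low to test. Among all 16485 genes tested, 9.59% rose and 9.29% fell. Of the 55 tested motile cilium genes 30.9% rose and 1.82% fell, with a median log2 fold change of 0.32, against -0.0072 over all genes tested. Here too genes reached the test partly through the group in which they were high: Gmnc and Dynlrb2, both counted as risers, had nearly the same wild-type counts in the ShhN IUE table and were not tested there. In 25 of the 55 all SmoM2 libraries lay above all wild-type libraries (20.4% of all genes tested) and in 5 below (19.7%). Over the 17 that rose, CPM summed to 110, 116 and 105 in the SmoM2 libraries, against 48.6, 55.4 and 50.8 in wild type. Again the gap to wild type follows from how the 17 were picked. Leaving out SmoM2 library 1, 2 or 3 left 11, 11 or 10 risers, while the calls over all genes fell to 1727, 1694 or 1334, against 3112 with all libraries.

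Hydin, Dnaaf3, the intermediate chains and Enkur were among the genes that rose in SmoM2. Hydin had 64, 74 and 59 counts in SmoM2, against 8, 10 and 15 in wild type (log2 fold change 2.20 ± 0.33, adjusted p = 0.0037). Dnaaf3 had 55, 64 and 48 counts, against 11, 15 and 10 (1.85 ± 0.29, adjusted p = 0.0041). Dnaic2 had 61, 56 and 40 counts, against 12, 10 and 14, and Dnaic1 had 45, 45 and 51, against 14, 14 and 9. None of these overlapped with wild type, and the log2 fold changes of Dnaic2 and Dnaic1 were 1.74 ± 0.32 and 1.56 ± 0.27. Enkur had 76, 104 and 87 counts in SmoM2, against 25, 28 and 25 (1.42 ± 0.25, adjusted p = 0.0074). Dynlrb2, a light chain of dyneins, had 19, 14 and 25 counts, against 0, 3 and 5 (2.43 ± 0.65, adjusted p = 0.034), a call lost without any single SmoM2 library. In ShhN IUE it had 62, 44 and 4 counts, against 0, 3 and 5, and was left out by the filter on low counts, with library 3 low.

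Of 17 Cfap genes tested in SmoM2, 5 rose and 0 fell. Cfap44 had 261, 289 and 275 counts, against 67, 84 and 91 in wild type (1.40 ± 0.20, adjusted p = 0.0030). Cfap43, Cfap52, Cfap54 and Cfap69 rose by 1.14, 1.44, 0.91 and 0.98. Cfap69 had 397, 421 and 391 counts in SmoM2, against 158, 221 and 104 in wild type, and 192, 147 and 196 in ShhN IUE, against 161, 220 and 124, where it did not pass (0.29 ± 0.22, adjusted p = 0.34). Among heavy chains, Dnah11 and Dnah5 rose by 1.69 and 0.72 in SmoM2, and Dnah6 had 267, 272 and 250 counts, against 32, 98 and 117, a separation that fell short of the threshold (1.31 ± 0.40, adjusted p = 0.053). Rsph3b, with 0.55 ± 0.13 (adjusted p = 0.022), was the spoke gene that passed of 6 tested. Tekt5 fell, with 15, 12 and 19 counts in SmoM2, against 47, 60 and 21 (fell by 1.81, SE 0.38, adjusted p = 0.014). The calls of Tekt5 and Cfap52 were lost without SmoM2 library 1 or 2, those of Cfap54 and Cfap69 without 2 or 3, that of Rsph3b without 1 or 3, and those of Dnah11 and Dnah5 without any of them. Of the rootlet genes, Crocc2 had 36, 19 and 22 counts, against 13, 39 and 32 (-0.49 ± 0.41, adjusted p = 0.44), and Crocc did not pass either (0.32 ± 0.13, adjusted p = 0.13).

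**Figure D2:**
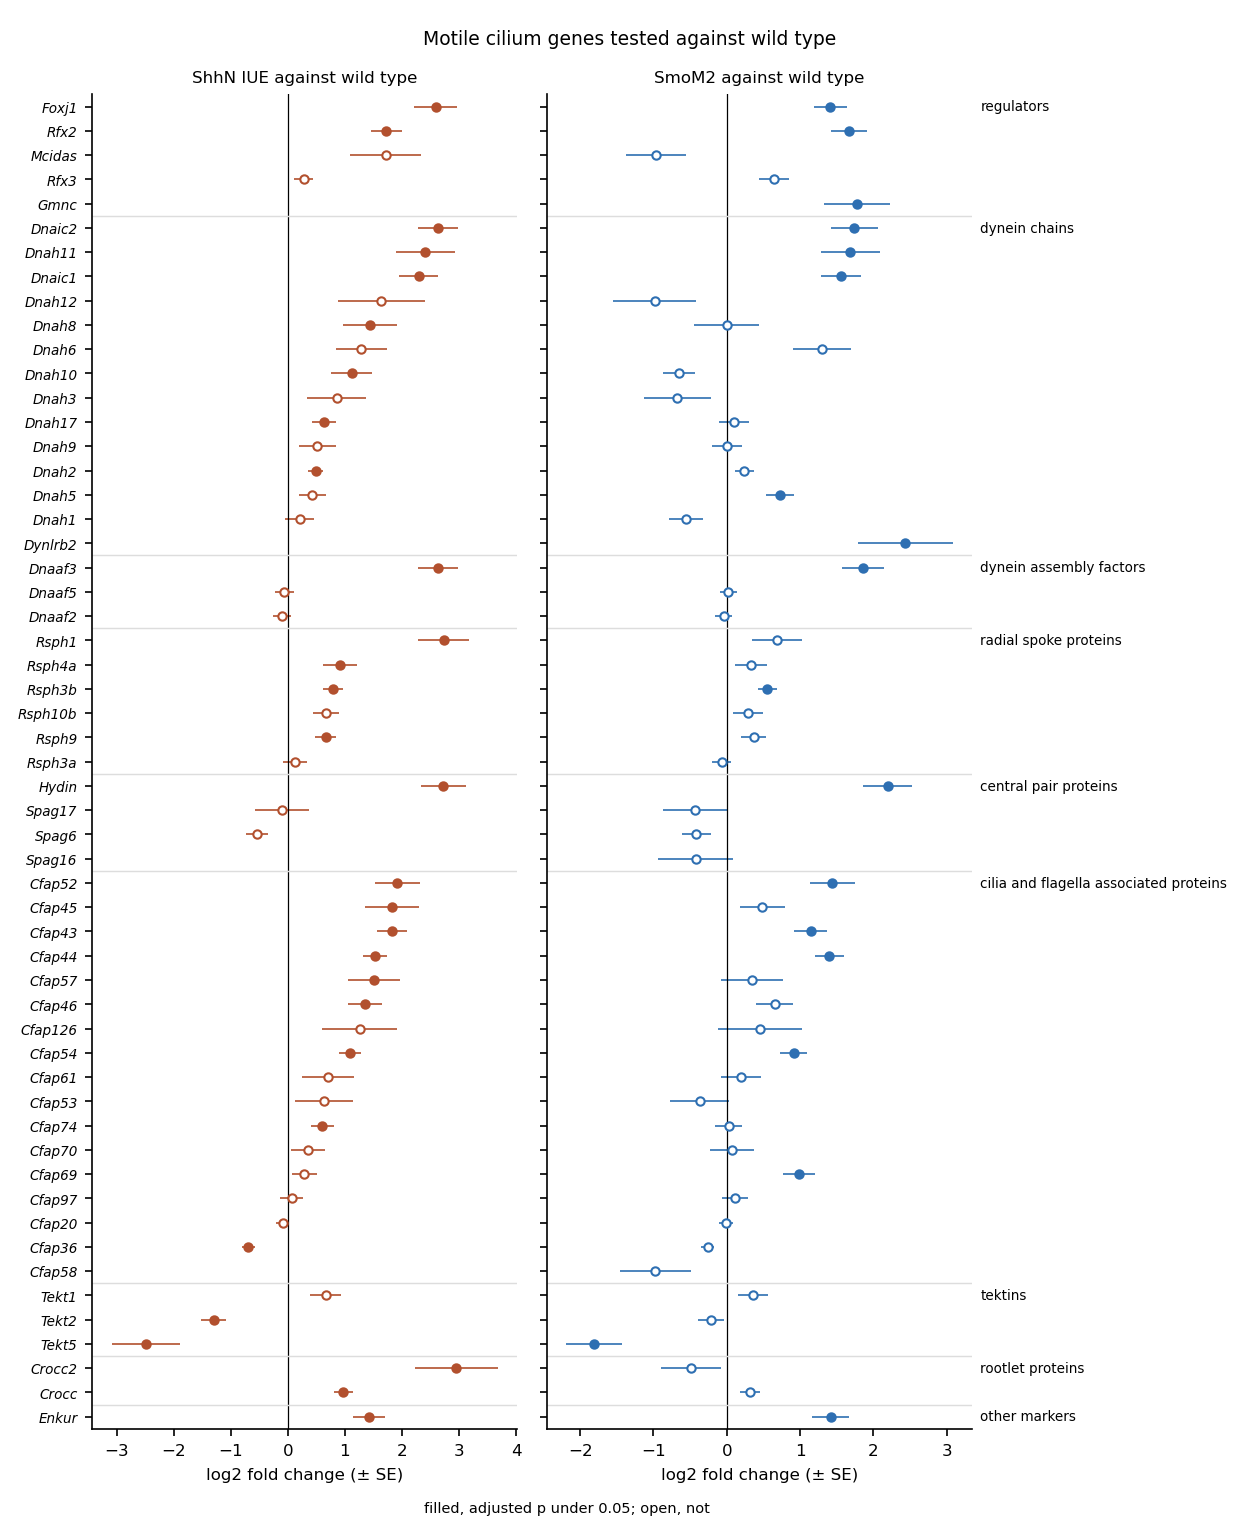
Log2 fold change (horizontal axes, with SE) of each motile cilium gene that was tested, ShhN IUE against wild type on the left and SmoM2 against wild type on the right, grouped by role. Filled symbols passed adjusted p under 0.05. In ShhN IUE 26 rose and 3 fell, and in SmoM2 17 rose and 1 fell. The 2 panels share their wild-type libraries and have separate scales.

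Set side by side, 13 genes rose in both groups, namely Foxj1, Rfx2, Hydin, Dnaaf3, Dnaic1, Dnaic2, Dnah11, Cfap43, Cfap44, Cfap52, Cfap54, Rsph3b and Enkur. The comparisons share their wild-type libraries, so a joint call is not independent evidence. Another 13 rose in ShhN IUE and did not pass in SmoM2, Cfap69 and Dnah5 rose in SmoM2 and did not pass in ShhN IUE, and Tekt5 fell in both. Gmnc and Dynlrb2 rose in SmoM2 and were left out by the filter on low counts in ShhN IUE, and Cfap36 and Tekt2 fell in ShhN IUE and did not pass in SmoM2. Neither comparison was passed by 20 genes, among them Mcidas, Rfx3, Dnah6, Dnah9, Cfap20 and Tekt1. Cfap58 and Spag16 were tested in SmoM2 alone and did not pass. Too low to test in both were Ccdc153, Cfap221, Dnaaf1, Dnah14, Rsph14, Rsph6a, Spag6l, Tekt4 and Tmem212, with at most 33 counts in any library. Calls that held in each alternative in which the gene was tested, and without each library, numbered 17 of 29 in ShhN IUE and 9 of 18 in SmoM2. Hydin, Dnaaf3, Dnah11, Crocc, Cfap36 and Cfap46 were not part of the alternative limited to genes with agreeing wild-type counts. The 17 were Foxj1, Rfx2, Hydin, Dnaaf3, Dnah11, Dnaic1, Dnaic2, Rsph1, Cfap36, Cfap43, Cfap44, Cfap46, Cfap52, Cfap54, Crocc, Tekt2 and Enkur, and the 9 were Foxj1, Rfx2, Hydin, Dnaaf3, Dnaic1, Dnaic2, Cfap43, Cfap44 and Enkur.

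Whether the groups differed was tested in a joint fit of all 9 libraries over genes whose wild-type counts agreed between tables. In SmoM2 against ShhN IUE, 42 of the 64 genes could be tested, of which 1 was higher and 8 were lower. The 8 became 2 without ShhN IUE library 1 or SmoM2 library 1 or 3, 3 without SmoM2 library 2, 5 without library 2 of either ShhN IUE or wild type, and 12 without ShhN IUE library 3. Among 12349 genes tested, 8.45% were higher and 8.07% lower in SmoM2. The median log2 fold change of the 42 was -0.32, against -0.0057 over all genes tested. In 14 of the 42 all SmoM2 libraries lay below all ShhN IUE libraries (20.6% of all genes tested) and in 2 above (20.4%). Foxj1 was lower in SmoM2 by a log2 fold change of -1.20 ± 0.32 (adjusted p = 0.028), which no longer passed when ShhN IUE library 1 or 2, or any single SmoM2 library, was left out (adjusted p up to 0.105). Mcidas was lower by -2.67 ± 0.61 (adjusted p = 0.015), though ShhN IUE library 3, with 8 counts, overlapped with SmoM2, and it no longer passed when ShhN IUE library 1 or SmoM2 library 1 or 3 was left out. Rfx2 had -0.07 ± 0.22 (adjusted p = 0.85) and Gmnc 0.63 ± 0.43 (adjusted p = 0.34).

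The structural genes lower in SmoM2 than in ShhN IUE were Rsph1, Dnah10, Dnah8, Dnah1, Cfap45 and Cfap74. Rsph1 had 46, 39 and 35 counts in SmoM2, against 153, 138 and 55 in ShhN IUE, with a log2 fold change of -2.06 ± 0.38 (adjusted p = 0.0059). Dnah10 had 59, 48 and 44 counts, against 191, 102 and 57 (-1.73 ± 0.33, adjusted p = 0.0070). No SmoM2 library reached a ShhN IUE library for either gene in CPM, and both calls held under each alternative in which the gene was tested. Dnah8, Cfap45, Dnah1 and Cfap74 had -1.41, -1.28, -0.75 and -0.59, with adjusted p between 0.038 and 0.047, and each lost its call without several single libraries. Tekt2 was higher in SmoM2, with 275, 262 and 316 counts, against 91, 106 and 76 in ShhN IUE (1.08 ± 0.19, adjusted p = 0.0056), a call that also held throughout. Hydin, Dnaaf3, Dnah11, Crocc and Crocc2 were not tested here, since their wild-type counts differed between tables by more than 0.1 on the log2 scale. The differences ran from 0.101 in Crocc2 (78 counts against 84 in the SmoM2 table) to 0.294 in Hydin (26 against 33), far less than in Rfx3.

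**Figure D3:**
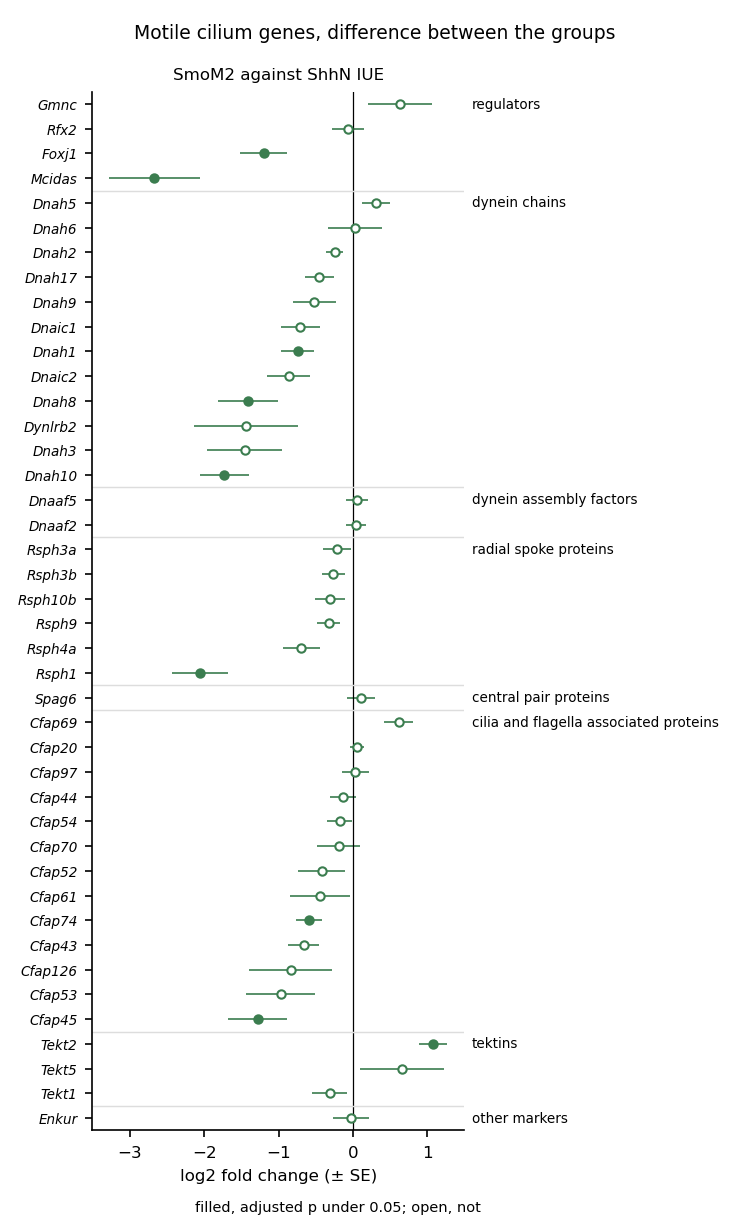
Log2 fold change (horizontal axis, with SE) of SmoM2 against ShhN IUE for the 42 motile cilium genes with agreeing wild-type counts that passed the count filter, grouped by role. Filled symbols passed adjusted p under 0.05. Tekt2 was higher in SmoM2, and Mcidas, Rsph1, Dnah10, Dnah8, Cfap45, Foxj1, Dnah1 and Cfap74 were lower.

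Genes that start multiciliation and amplify centrioles, outside the name rule, were taken from a list of 21, of which 20 were in the table with ShhN IUE and tested. In ShhN IUE 9 rose and 1, E2f5, fell, with a median log2 fold change of 0.28, where 16.1% of all genes tested rose and 17.2% fell. Low genes of the list reached the test through the group in which they were high. E2f5 lost its call without any single ShhN IUE library or wild-type library 3. Ccdc67, also called Deup1 and the core of the deuterosome on which most centrioles of multiciliated cells form, had 163, 109 and 32 counts in ShhN IUE, against 4, 18 and 7 in wild type (3.53 ± 0.64, adjusted p = 0.0054). Cdc20b, another gene of deuterosomes, had 94, 47 and 20 counts, against 1, 6 and 8 (3.51 ± 0.69, adjusted p = 0.0073). No ShhN IUE library overlapped with wild type for either gene, and both were lowest in library 3. Foxn4, a transcription factor of multiciliated cells in frog skin, had 31, 20 and 10 counts, against 5, 4 and 0 (2.87 ± 0.71, adjusted p = 0.018), a call that needed both ShhN IUE library 1 and wild-type library 2.

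Ccno, a cyclin needed for centriole amplification, had 138, 75 and 28 counts in ShhN IUE, against 39, 32 and 24 in wild type, and rose by 1.47 ± 0.48 (adjusted p = 0.047), a call lost without any single library other than ShhN IUE library 3. Ccno (112987802 to 112990778), Mcidas (112993868 to 113000394) and Cdc20b (113035111 to 113091195) are neighbours on chromosome 13 (GRCm38). Cep152, Stil, Myb, Rfx4 and Ccp110 also rose in ShhN IUE; Cep152 and Stil serve centriole duplication in every cycling cell, Myb is also used by cycling progenitors, and Rfx4 is a gene of radial glia.

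In SmoM2, 18 genes of this list were tested, 4 rose and 1 fell, where 9.59% of all genes tested rose and 9.29% fell. The 4 were Rfx4, Stil, Cep152 and Myb, with log2 fold changes of 1.25, 1.10, 0.78 and 0.74, and without SmoM2 library 3 only 2 rose. Trp73, a p53 relative that acts upstream of Foxj1 and also marks Cajal-Retzius neurons, had 126, 122 and 105 counts in SmoM2, against 259, 210 and 142 in wild type (fell by 1.15, SE 0.23, adjusted p = 0.012), a call lost without SmoM2 library 3. Ccdc67 had 24, 17 and 9 counts in SmoM2, against 5, 18 and 7 (0.39 ± 0.51, adjusted p = 0.64), and Ccno had 38, 17 and 16, against 39, 32 and 24 (-0.80 ± 0.37, adjusted p = 0.17). Cdc20b had 11, 11 and 14 counts in SmoM2, against 3, 6 and 8 in wild type, and Foxn4 had 9, 11 and 2, against 6, 4 and 1. Neither was among the genes called. In FPKM the lowest SmoM2 library of Cdc20b, at 0.205, lay below the highest wild-type library, at 0.216. Set against ShhN IUE directly, SmoM2 was lower in Ccdc67 (-3.11 ± 0.58, adjusted p = 0.0064), Ccno (-2.28 ± 0.49, adjusted p = 0.012) and Trp73 (-0.81 ± 0.21, adjusted p = 0.027), and higher in E2f5 (0.58 ± 0.13) and Ccdc78 (1.17 ± 0.28). Ccdc67 kept its call without each library. Ccno lost it without ShhN IUE library 1 or SmoM2 library 2 or 3, E2f5 without SmoM2 library 2, Ccdc78 without ShhN IUE library 2 or SmoM2 library 2 or 3, and Trp73 without any single SmoM2 library or ShhN IUE library 1 or 2.

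**Figure D4:**
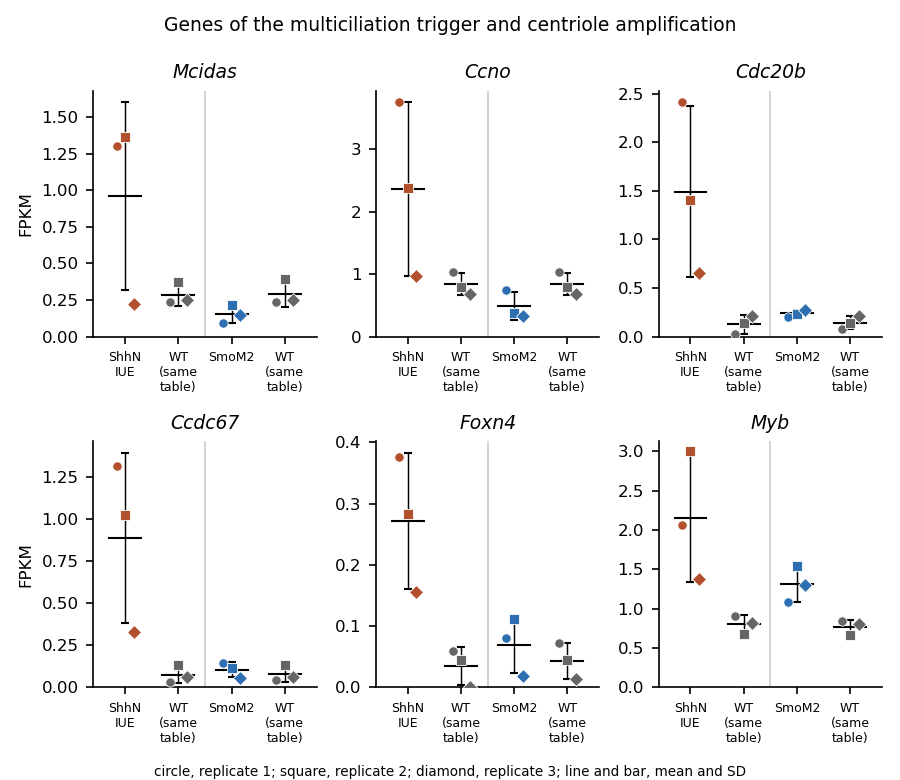
FPKM (vertical axes, a scale of its own in each panel) of Mcidas and 5 genes from the list for the start of multiciliation and centriole amplification. Every library is shown, each group beside the wild type of its own table. Markers are single libraries, lines and bars the mean and SD of 3. ShhN IUE library 3 is the lowest of its group in each panel, and SmoM2 Ccdc67 stands at 9 to 24 counts, against 5 to 18 in wild type.

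A second list held 78 axoneme genes with names outside the rule, of which 56 were tested in ShhN IUE: 26 rose and 2 fell, with a median log2 fold change of 0.88. Over all genes tested 16.1% rose and 17.2% fell, with a median of -0.0038. Genes of this list, too, reached the test partly through the group in which they were high. Without ShhN IUE library 1, 17 rose. Stk36, a kinase needed for the central pair, had 846, 738 and 572 counts in ShhN IUE, against 361, 324 and 266 in wild type (1.35 ± 0.15, adjusted p = 0.0010). Wdr63, an inner-arm intermediate chain, had 94, 79 and 31 counts, against 0, 4 and 2 (5.16 ± 0.69, adjusted p = 0.0018, a size that rests on few wild-type counts). Iqcg, of the nexin-dynein regulatory complex, and Ccdc40, which sets the axoneme's repeat length, rose by 2.01 and 1.47. Ift88, which serves primary cilia too, fell by 0.36 (SE 0.12, adjusted p = 0.049), and without any single library only 1 gene of the list fell. The light chain gene Dnal1 fell, with 138, 498 and 110 counts in ShhN IUE, against 1249, 1695 and 1092 in wild type. The other table gave the same wild-type libraries 645, 1262 and 1058 counts of Dnal1.

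Of the second list 55 genes were tested in SmoM2: 16 rose and 1, Drc1, fell, with a median log2 fold change of 0.62. Over all genes tested 9.59% rose and 9.29% fell, with a median of -0.0072. The same limit on which genes reached the test holds here. Drc1 had 220, 222 and 204 counts in SmoM2, against 329, 299 and 188 in wild type (fell by 0.69, SE 0.20, adjusted p = 0.047), and without SmoM2 library 1, 2 or 3 the risers numbered 10, 9 or 10. Stk36 had 1272, 933 and 962 counts in SmoM2, against 403, 356 and 279 (1.24 ± 0.15, adjusted p = 0.0015). Wdr66, Iqcg, Mns1 and Ak9 rose by 1.35, 1.71, 1.28 and 2.54. In SmoM2 against ShhN IUE, 0 of 47 tested were higher and 5 lower, where 8.07% of all genes tested were lower, a share near that of the list. Lrrc23, a spoke protein, had -1.80 ± 0.43 (adjusted p = 0.019), and Zmynd10, a dynein assembly factor, -0.87 ± 0.21 (adjusted p = 0.021). Without any single SmoM2 library, or without ShhN IUE library 1, 0 genes of this list were lower, and 1 was higher without SmoM2 library 1.

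Promoters of the motile cilium genes were read from RefSeq (GRCm38.p6), from 250 bases before to 50 after the start, for 55 of the 64. No promoter was available for Foxj1 itself, nor for Cfap53, Cfap54, Cfap97, Dnaaf1, Dnah3, Rsph1, Rsph10b and Rsph4a. The letters GTTGCC, the core of the motif bound by RFX factors, stood on either strand in 25 of 55 (45.5%), against 14.1% of 27025 promoters in the RefSeq table and 15.01% of the 14667 genes of the SmoM2 table that had one. In ShhN IUE 11 of 22 risers with a promoter held it, and 8 of 21 tested genes that did not rise. In SmoM2 7 of 15 risers held it, and 15 of 32 that did not rise. The forkhead letters TGTTTAC stood in 3 of 55 (5.45%), against 4.05% of all, and the GLI letters GACCACCCA in 0 of 55, against 0.289%. The GLI letters are so rare among all promoters that 0 of 55 cannot set these genes apart. Below are the promoters of 5 of the 6 genes that rose in both groups and hold the RFX letters, shown as examples. That of Cfap52, which rose in both and holds none of the 3 motifs, is added. Each is written 5′ to 3′ on the gene's strand and capitals mark GTTGCC or its reverse complement GGCAAC.
Hydin, chr8:110266727-110267026, plus strand: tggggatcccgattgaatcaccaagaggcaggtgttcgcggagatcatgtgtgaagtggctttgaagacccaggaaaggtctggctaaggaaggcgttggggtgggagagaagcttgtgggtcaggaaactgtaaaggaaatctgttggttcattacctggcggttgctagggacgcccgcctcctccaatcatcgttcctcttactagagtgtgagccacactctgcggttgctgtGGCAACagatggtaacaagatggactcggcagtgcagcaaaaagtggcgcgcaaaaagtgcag
Enkur, chr2:21205316-21205615, minus strand: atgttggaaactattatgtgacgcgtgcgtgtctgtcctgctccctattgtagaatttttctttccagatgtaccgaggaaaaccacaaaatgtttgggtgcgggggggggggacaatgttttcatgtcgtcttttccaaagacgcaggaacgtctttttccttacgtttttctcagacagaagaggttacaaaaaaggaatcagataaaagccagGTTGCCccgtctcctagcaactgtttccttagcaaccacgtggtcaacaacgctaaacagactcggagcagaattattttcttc
Dnaic2, chr11:114727169-114727468, plus strand: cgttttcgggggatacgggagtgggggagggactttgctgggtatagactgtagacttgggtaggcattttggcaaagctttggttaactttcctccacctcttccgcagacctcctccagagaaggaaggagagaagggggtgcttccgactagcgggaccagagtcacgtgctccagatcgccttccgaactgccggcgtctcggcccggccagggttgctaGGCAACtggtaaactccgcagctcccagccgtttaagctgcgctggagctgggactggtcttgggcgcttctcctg
Rfx2, chr17:56830959-56831258, minus strand: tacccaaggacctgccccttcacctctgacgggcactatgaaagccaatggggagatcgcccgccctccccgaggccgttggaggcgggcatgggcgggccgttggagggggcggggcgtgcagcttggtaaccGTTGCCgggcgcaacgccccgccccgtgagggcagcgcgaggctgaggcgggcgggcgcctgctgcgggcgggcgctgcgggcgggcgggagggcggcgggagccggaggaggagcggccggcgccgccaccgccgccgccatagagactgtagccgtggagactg
Cfap44, chr16:44394549-44394848, plus strand: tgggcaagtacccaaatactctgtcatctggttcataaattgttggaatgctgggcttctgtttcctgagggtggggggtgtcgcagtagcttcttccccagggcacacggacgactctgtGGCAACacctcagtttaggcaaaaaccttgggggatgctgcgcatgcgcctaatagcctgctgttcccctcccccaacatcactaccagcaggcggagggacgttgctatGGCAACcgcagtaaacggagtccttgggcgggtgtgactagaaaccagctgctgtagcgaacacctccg
Cfap52, chr11:67965593-67965892, minus strand: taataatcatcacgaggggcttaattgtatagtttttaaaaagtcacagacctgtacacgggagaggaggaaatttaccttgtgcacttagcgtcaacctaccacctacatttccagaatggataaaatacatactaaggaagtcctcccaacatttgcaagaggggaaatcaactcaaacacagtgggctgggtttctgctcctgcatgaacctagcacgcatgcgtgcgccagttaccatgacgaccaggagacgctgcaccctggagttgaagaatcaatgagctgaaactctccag
In these 5 promoters every match lay upstream of the start, as does most of the window, so this gives no preferred position. A match is a string of letters in a window, not a measured binding site.

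Markers of other cells were followed beside these results, and their counts stand against 16.1% of all genes tested that rose and 17.2% that fell in ShhN IUE, and 9.59% and 9.29% in SmoM2. Of 14 choroid plexus genes, 6 were tested in ShhN IUE, 0 rose and 2 fell, and their sum was 40.5 to 56.4 CPM in ShhN IUE, against 52.1 to 61.6 in wild type. In SmoM2 8 were tested, 1 rose and 0 fell, and the sum was 58.6 to 59.2 CPM, against 52.4 to 63.7 in wild type. Ttr, which defines the choroid plexus, had 15, 6 and 0 counts in ShhN IUE and 2, 2 and 0 in SmoM2, against 1, 5 and 2 in wild type, and Folr1 had at most 3 counts in any library. Of 11 further ependymal genes, Dynlrb2 included, 10 were tested in each comparison; in ShhN IUE Vim rose and Six3 fell, and in SmoM2 Vim and Dynlrb2 rose and Six3 fell. Vim is also a gene of radial glia, and Six3 is also expressed in striatal neurons. S100b, a marker of maturing ependyma, had 22, 20 and 45 counts in ShhN IUE, against 17, 29 and 15 in wild type (0.74 ± 0.45, adjusted p = 0.23), and 44, 33 and 24 counts in SmoM2, against 17, 29 and 14 (0.40 ± 0.34, adjusted p = 0.45).

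Radial glial and cycling genes moved with the motile cilium genes. Of 10 genes of cycling cells 10 rose in each comparison, with sums of 406 to 489 CPM in ShhN IUE and 340 to 473 in SmoM2, against 132 to 170 and 131 to 169 in the wild type of each table. Of 10 radial glial genes 6 rose in ShhN IUE and 5 in SmoM2, with sums of 1398 to 1665 and 1401 to 1501 CPM, against 869 to 1238 and 877 to 1189 in wild type. Meningeal genes varied within groups, at 13.9 to 520 CPM in ShhN IUE and 136 to 284 in SmoM2, against 11.7 to 339 in wild type of the ShhN IUE table, and 0 of 6 passed in either comparison. Of 5 blood genes, 0 passed in ShhN IUE, and Alas2 and Hba-a2 rose in SmoM2. Hba-a2, a haemoglobin gene, had 1301, 489 and 714 counts in SmoM2, against 1, 2 and 0 in wild type. The blood genes together summed to 177 to 414 CPM in SmoM2, against 131 to 237 in wild type of its table, so the groups overlapped. How reads were split among the haemoglobin genes is not known. The part of these cells in the motile cilium results was not tested.

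Some of the named genes share genome with a neighbour, and strand use in counting is not stated in the sources used here. By GENCODE M21, Cfap43 overlaps Itprip, Gsto1 and Gsto2, Dnah11 overlaps Cdca7l, Dnah8 overlaps Glo1, Dnah17 overlaps Pgs1, Dnaic1 overlaps Enho, Rsph9 overlaps Mrps18a and Dnaaf3 overlaps Tnni3, so their counts may hold reads of those genes. Rsph3a and Rsph3b are near-identical copies, and how reads were split between them is not known. The symbols Spag6 and Spag6l in the tables are the reverse of RefSeq's: the row called Spag6 lies on chromosome 16.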

How the data were processed

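Bulk RNA-seq libraries of postnatal day 0 cortex (3 ShhN IUE, 3 SmoM2, 3 wild type) were analysed from 2 tables. The authors deposited raw read counts per gene, and beside them FPKM values, per the file headers. The submitters' processing notes name the tools HISAT2, StringTie and edgeR, and as genome builds mm10 and GRCm38.p4. Strand use in counting is not stated in those notes. Counts were tested with edgeR 4.0.16 (quasi-likelihood F test, TMM scaling, filterByExpr, Benjamini-Hochberg adjusted p under 0.05) in R 4.3.3, each group against the wild type of its own table. A gene too low to test was one that filterByExpr left out, even where some libraries of a group held more counts. SE is the log2 fold change divided by the root of F. SmoM2 and ShhN IUE were compared in a joint fit over 16195 of 22268 genes whose wild-type sums, plus 5 counts, agreed within 0.1 on the log2 scale. CPM used the TMM library sizes. FPKM served only to describe levels, between genes and between groups, and was not tested. The procedure was tested on simulated data. Alternatives were RLE and upper quartile scaling, other filters, DESeq2 1.42.0, limma-voom (limma 3.58.1), a replicate block, other tolerances and leaving out each library. Same-numbered libraries gave no sign of pairing, though so few libraries per group cannot exclude it. Replicate libraries differed by more than counting noise (chi-square per degree of freedom 17.8 to 36.9), so none was treated as a duplicate. The motile cilium genes and the lists were chosen with earlier results of these data known. Genes named were the regulators, Crocc, Crocc2, Hydin, Ccdc153 and Tmem212, up to 15 called genes per direction and comparison with the smallest adjusted p, the 5 highest and 5 lowest in wild-type FPKM, the 5 with the largest FPKM difference that did not pass, up to 5 genes of each further list per comparison, and set markers. Others named to account for every gene, and Dnaaf2, Dnaaf5, Dnah6, Dnah9, Spag6, Spag17, Tekt1, Dnal1, Ift88, Drc1, S100b, Six3, Vim, Alas2, Hba-a2 and Tekt4 where outside that rule, were chosen after their values were seen. Likeness to Foxj1 across libraries, also planned, is not reported because libraries cluster by group.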

Additional observations from a re-analysis of the deposited data

How the results depend on the processing

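Counts of motile cilium genes called depended most on single libraries. In ShhN IUE against wild type, leaving out each library gave 15 to 28 genes that rose, 2 to 3 that fell and 3251 to 4624 of all genes called, against 26, 3 and 5380 with all libraries. The lowest counts of risers and of all genes came without ShhN IUE library 1 (15 and 3251). In SmoM2 against wild type, leaving out each library gave 10 to 18 that rose, 0 to 1 that fell and 1334 to 3010 of all genes, against 17, 1 and 3112. In SmoM2 against ShhN IUE it gave 2 to 12 that were lower, 1 to 2 that were higher and 834 to 2336 of all genes, against 8, 1 and 2040. There, 5 were lower with no filter on low counts and 4 with the replicate block, and 2 were higher with DESeq2, with limma-voom and with a tolerance of 0.2. The cause of these moves was not tested, other than that fewer libraries entered. With the replicate block, 19 rose in ShhN IUE and 16 in SmoM2. Same-numbered libraries gave no sign of deviating together (correlations from -0.32 to 0.26). With so few libraries per group this cannot exclude that the numbers pair the samples. Rfx2 in SmoM2 against ShhN IUE had -0.07 with all libraries, 0.0088 without SmoM2 replicate 3 and -0.18 to 0.0088 over the libraries left out, and passed in none. Of the genes called, 17 of 29, 9 of 18 and 3 of 9 kept their call in the 3 comparisons under each alternative in which they were tested; Hydin, Dnaaf3, Dnah11, Crocc, Cfap36 and Cfap46 were not in the one limited to agreeing wild-type counts. Most of these genes had few counts, which limits the size of change that could be called, and those too low to test may differ between groups.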
